A study of Mus musculus with 54 samples.

Results

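The genes of the T cell receptor complex, of its coreceptor CD4, and of the kinases and phosphatases that act first on it were followed in naive mouse CD4+ T cells before and after stimulation. The 10 genes were Cd3d, Cd3e, Cd3g, and Cd247 (the CD3 and zeta chains), Cd4, the kinase genes Lck, Fyn, and Zap70, and the phosphatase genes Ptprc (CD45) and Ptpn22. They were chosen by name, from 55385 genes in the count tables, and all 10 passed the filter on low counts in both tables, with 1637 counts (Ptpn22) to 232777 counts (Ptprc) in a library.

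The T cell antigen receptor has no enzyme of its own. When it is engaged, LCK, held near the receptor by CD4, phosphorylates the tails of the CD3 and zeta chains, ZAP-70 docks on the phosphorylated tails, and ZAP-70 then phosphorylates the adaptor LAT. CD45 removes the inhibitory phosphate of LCK and FYN, whereas PTPN22 removes activating phosphates from these kinases and damps the signal.

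Cells came from 8 to 10 wk old mice on a C57BL/6 background, and each condition had 3 libraries. In the CD5/CD6 experiment (36 libraries), WT, Cd5-/-, Cd6-/-, and doubly deficient Cd5-/-Cd6-/- cells were enriched from lymph nodes and spleen with a kit for naive CD4+ T cells. The Cd5-/- line was backcrossed, the Cd6-/- line carries a CRISPR/Cas9 deletion, and the doubly deficient line carries a CRISPR/Cas9 deletion on chromosome 19. In the LAT experiment (18 libraries), WT and Lat-/- cells were the human DTR+ and DTR- cells sorted from Lat fl-dtr maT-Cre animals, so both groups came from mice with the Cre transgene, whose driver is not given in the sources used here. Cells were unstimulated (0 h) or kept for 4 h or 20 h on plates coated with anti-CD3 (3 µg/ml) with anti-CD28 (1 µg/ml) in solution, and since no libraries of cells cultured without stimulus were analysed here, stimulation and time in culture cannot be told apart. The study describes the samples of a condition as independent. Whether they came from separate mice is not given in the sources used here, so p-values rest on the spread between these samples. In the LAT fit that spread was shared over genes, so its SE and p-values hardly reflect a gene's own spread. There the SE of the log2 change at 4 h in WT cells was 0.145 for Cd3d and 0.147 for Cd3e, although the 0 h libraries of Cd3d were far more uneven.

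On the GRCm38 build, 3 of the 4 chain genes lie side by side on chromosome 9, with Cd3g at 44969572-44980431 (minus strand), Cd3d at 44981786-44987339 (plus strand), and Cd3e at 44998740-45009627 (minus strand), within 40056 bases. Cd3g and Cd3d are transcribed away from each other from starts that lie 1354 bases apart. The other members are spread over the genome, with Cd247 (165788681-165877277), Ptprc (138062861-138175708), and Zap70 (36761798-36782818) on chromosome 1, Ptpn22 (103859795-103912247) on chromosome 3, Lck (129548344-129573641) on chromosome 4, Cd4 (124864692-124888221) on chromosome 6, and Fyn (39368855-39565381) on chromosome 10. Cd247 overlaps Pou2f1 on the opposite strand, and since the use of strand in counting is not given in the sources used here, reads in that overlap may have been assigned to either gene.

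RefSeq promoters of GRCm38.p6, taken from 250 bases before to 50 bases after a start, matched 9 of the 10 members, all but Cd4. Shown here are the promoters of the CD3 cluster, whose genes fell by 20 h, and those of Zap70 and Ptpn22, which rose the most at 4 h, each printed 5′ to 3′ on the strand of its gene. Capitals mark GGAA and its reverse complement TTCC, the core bound by ETS family factors, searched on both strands. These words cannot overlap each other.
Cd3g, chr9:44980382-44980681, minus strand: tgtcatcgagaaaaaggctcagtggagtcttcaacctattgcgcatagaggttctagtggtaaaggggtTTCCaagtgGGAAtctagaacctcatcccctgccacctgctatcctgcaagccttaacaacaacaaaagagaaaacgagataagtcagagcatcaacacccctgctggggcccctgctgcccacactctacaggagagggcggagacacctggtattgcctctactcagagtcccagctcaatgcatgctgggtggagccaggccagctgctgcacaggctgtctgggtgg
Cd3d, chr9:44981536-44981835, plus strand: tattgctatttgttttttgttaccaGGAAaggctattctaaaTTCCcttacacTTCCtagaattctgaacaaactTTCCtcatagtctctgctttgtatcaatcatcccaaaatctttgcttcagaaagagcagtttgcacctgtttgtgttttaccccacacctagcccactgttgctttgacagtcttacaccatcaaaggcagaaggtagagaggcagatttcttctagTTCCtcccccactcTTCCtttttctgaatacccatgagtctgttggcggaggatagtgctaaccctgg
Cd3e, chr9:45009562-45009861, minus strand: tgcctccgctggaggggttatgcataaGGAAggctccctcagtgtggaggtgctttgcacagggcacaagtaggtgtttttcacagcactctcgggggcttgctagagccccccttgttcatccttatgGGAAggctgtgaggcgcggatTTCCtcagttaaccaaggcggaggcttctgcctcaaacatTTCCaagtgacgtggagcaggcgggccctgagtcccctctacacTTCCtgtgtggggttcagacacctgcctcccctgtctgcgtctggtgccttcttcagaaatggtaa
Zap70, chr1:36761548-36761847, plus strand: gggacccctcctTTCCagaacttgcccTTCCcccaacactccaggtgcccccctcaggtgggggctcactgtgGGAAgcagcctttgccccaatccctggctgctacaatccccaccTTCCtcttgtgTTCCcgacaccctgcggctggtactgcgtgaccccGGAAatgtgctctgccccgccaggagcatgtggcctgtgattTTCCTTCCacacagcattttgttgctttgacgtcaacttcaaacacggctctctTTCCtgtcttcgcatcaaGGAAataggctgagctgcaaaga
Ptpn22, chr3:103859545-103859844, plus strand: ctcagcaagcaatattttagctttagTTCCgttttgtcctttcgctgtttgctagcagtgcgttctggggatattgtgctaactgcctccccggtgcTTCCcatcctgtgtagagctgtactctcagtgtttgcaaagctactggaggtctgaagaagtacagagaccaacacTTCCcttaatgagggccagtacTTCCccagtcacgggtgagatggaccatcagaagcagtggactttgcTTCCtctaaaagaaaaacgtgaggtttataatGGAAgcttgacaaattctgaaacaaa
The ETS core occurred 2 times in the Cd3g promoter, 6 times in that of Cd3d, 5 times in that of Cd3e, 10 times in that of Zap70, and 6 times in that of Ptpn22. Of 32851 promoters of this length, 96% held at least 1 ETS core, with a median of 3, 28.6% held at least 5, 15.7% at least 6, and 0.636% at least 10. A match describes the letters only. Zap70 and Ptpn22 have further RefSeq starts, and the windows of those of Zap70 held 7 and 0 ETS cores and that of Ptpn22 held 5. Of the members not shown, Fyn, which also rose at 4 h, had 0 ETS cores, and Cd247 had 2. The windows of Lck held 7 and 4, and those of Ptprc held 5 and 2. No link between these counts and the levels was tested.

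Libraries held 20554354 to 45222554 counts in the CD5/CD6 experiment and 17784644 to 28501095 in the LAT experiment, and levels are given as CPM, the reads of a gene relative to all reads of its library, scaled with TMM factors. Lat, which codes for the adaptor removed in the LAT experiment, was at 5.69 to 19.1 CPM in Lat-/- libraries and at 92.2 to 350.8 CPM in WT libraries of that experiment. The means of these WT cells were 248.7, 308.9, and 98.25 CPM at 0, 4, and 20 h. WT cells of the CD5/CD6 experiment held more, with means of 704, 1223, and 532.2 CPM, and the part of this in the results was not tested. The 0 h libraries 2 labelled Cd5-/- and Cd6-/- went against their labels, with Cd5 at 719.5 CPM and Cd6 at 328.6 CPM in the first, and Cd5 at 172.5 CPM and Cd6 at 1203 CPM in the other. Without both of them no member call was lost and 4 were gained. Over all genes, the 0 h library 3 of Cd6-/- cells stood apart (chi-square per degree of freedom of 216.7 and 221.3 to libraries 1 and 2, against 41.37 between those), as did the 0 h library 2 of WT cells in the LAT experiment (145.8 and 129.5, against 28.98 between libraries 1 and 3). Without the former 0 member calls were lost and 3 gained, and without the latter 1 was lost (Cd3g at 4 h in WT cells) and 6 were gained, all 6 within Lat-/- cells. T cell markers summed to 1956 CPM or more in every library, whereas Cd8a and Cd8b1 together reached at most 85.1 CPM. Markers of other cells were high and uneven at 0 h in the CD5/CD6 experiment, with sums of 235.5 to 4039 CPM for 3 erythroid genes, 45.1 to 358.6 CPM for 5 myeloid genes, and 738 to 2108 CPM for 5 B cell genes, most of it Ighm. At 4 h they were 187.7 to 3370 CPM, 4.96 to 35.3 CPM, and 138.7 to 523 CPM. At 20 h they were 1.89 to 64.4 CPM, 0.133 to 0.592 CPM, and 311.4 to 406 CPM, with Pax5 at most 0.299 CPM. Gamma delta T cell markers summed to 31.7 to 125.5 CPM at 0 h and 3.98 to 19.9 CPM at 20 h, and regulatory T cell markers to 29.0 to 67.5 CPM and 4.32 to 23.3 CPM. In the sorted cells of the LAT experiment, erythroid genes summed to at most 2.29 CPM, myeloid genes to at most 3.1 CPM, and Pax5 was at most 0.122 CPM, while Ighm was at 80.6 to 1146 CPM. Their part in the results was not tested.

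In unstimulated WT cells from the CD5/CD6 experiment, levels per kilobase of gene model were led by Cd3d (537.3 CPM per kb) and Lck (426.4 CPM per kb), whose libraries overlapped. Cd4 (301.4 CPM per kb) and Cd3g (262.6 CPM per kb) followed and overlapped each other. Ptprc (131.7 CPM per kb), Cd247 (122.5 CPM per kb), and Cd3e (120.1 CPM per kb) could not be ordered beyond their spread, nor could Fyn (98.2 CPM per kb) and Zap70 (87.4 CPM per kb), whereas Ptpn22 was lowest at 24.5 CPM per kb. At 4 h Zap70 (323.3 CPM per kb) overlapped Cd3d (385.2 CPM per kb) and Ptprc (311.2 CPM per kb), and Cd247 was last at 57.0 CPM per kb. At 20 h Ptpn22 was again last (12.7 CPM per kb), while Zap70 (165.4 CPM per kb) overlapped Cd4 (169.5 CPM per kb).

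**Figure D1:**
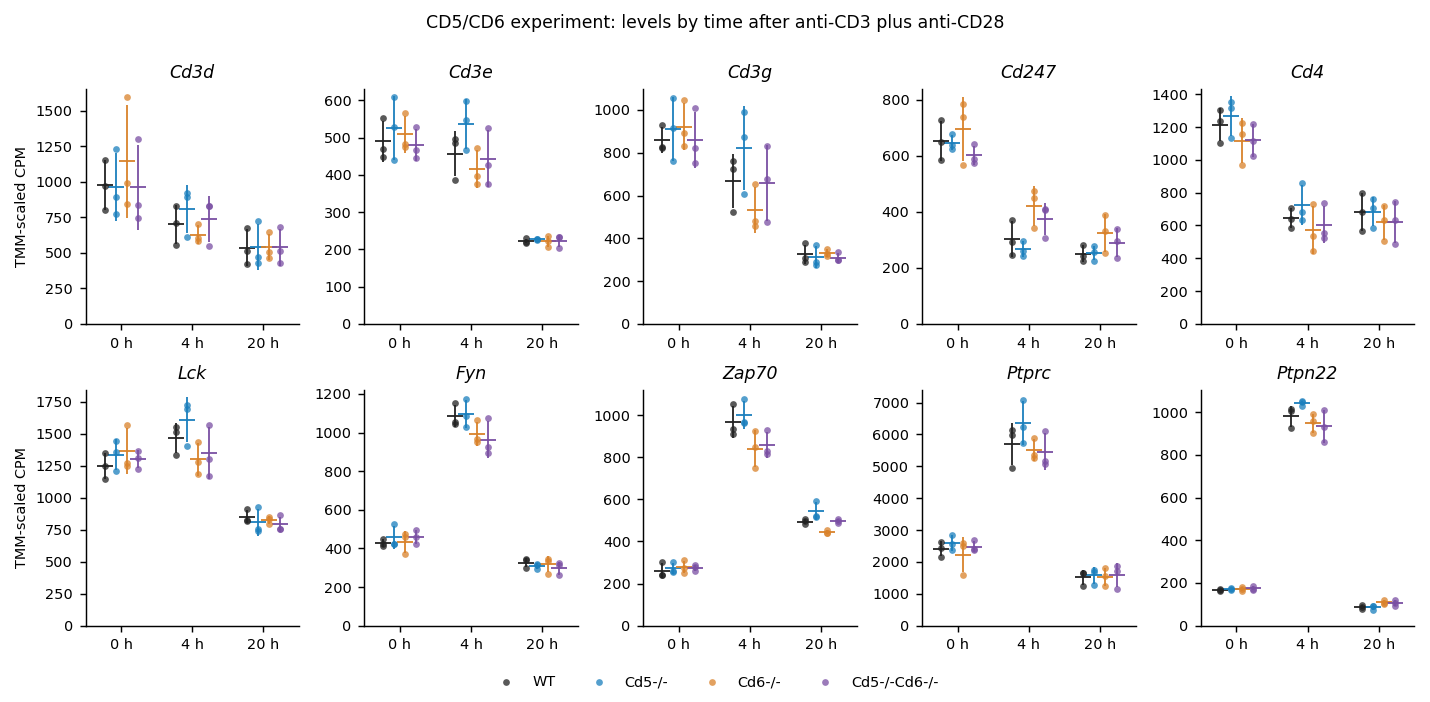
Level of each gene (TMM-scaled CPM, linear axis from 0) in every library of the CD5/CD6 experiment at 0, 4, and 20 h, with the mean (bar) and SD (line) of 3 libraries for WT, Cd5-/-, Cd6-/-, and Cd5-/-Cd6-/- cells. Fyn, Zap70, Ptprc, and Ptpn22 are highest at 4 h in all 4 genotypes, with Ptpn22 between 858.5 and 1051 CPM in the 12 libraries of 4 h.

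After 4 h of stimulation the genes of 2 kinases and both phosphatases were higher, and by 20 h nearly all members were lower. In WT cells from the CD5/CD6 experiment, 4 members (Fyn, Zap70, Ptprc, Ptpn22) were higher at 4 h than at 0 h and 2 were lower (Cd247, Cd4), against 13.3% of all genes higher and 15.2% lower. At 20 h all 10 differed from 0 h, with Zap70 higher and 9 members lower, against 16.9% of genes higher and 21.1% lower. From 4 h to 20 h, 7 members fell and 0 rose, against 16.7% of genes lower and 13.8% higher. In WT cells from the LAT experiment the same 4 genes were higher at 4 h and 3 were lower (Cd3g, Cd247, Cd4), against 14.2% and 14.8% of genes. Zap70 was higher and 8 members were lower at 20 h than at 0 h, against 16.5% and 18.2%, and 9 were lower and 0 higher at 20 h than at 4 h, against 16.1% lower and 13.4% higher. The median log2 change of the 10 members was 0.07 at 4 h and -0.85 at 20 h in the CD5/CD6 experiment and 0.08 and -0.96 in the LAT experiment, where the median of all genes tested was 0. Over genes with a mean count of at least 10 (13738 of 32290 and 12540 of 27780) it was -0.077 and -0.065, then -0.031 and -0.071. Shares of genes here and below are over all genes tested, many with few reads, whereas every member had at least 1637 counts in each library. The share among genes of like level was not taken. Library totals in place of TMM factors shifted the 4 h values of WT cells by -0.25 and -0.24 (log2) in these experiments, and in the CD5/CD6 experiment 5 members were then lower at 4 h and 4 higher. T cell markers were also lower at 20 h, with 6 genes summing to 3706 to 4753 CPM at 0 h, 3775 to 4629 CPM at 4 h, and 2036 to 2390 CPM at 20 h in WT cells from the CD5/CD6 experiment and 4632 to 6546, 4856 to 5363, and 2310 to 2557 CPM in those from the LAT experiment. Naive T cell markers summed to 3637 to 4220, 906 to 1251, and 1468 to 1671 CPM in the former, and the part of either in the results was not tested.

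The CD3 chains, which pair with the antigen-binding chains and carry signaling motifs, fell by 20 h in WT cells of both experiments, with smaller changes at 4 h. Cd3e was at 469.2, 447.6, and 552.8 CPM at 0 h, 496.7, 387.4, and 486.6 CPM at 4 h, and 221.2, 218.6, and 229.6 CPM at 20 h in WT cells from the CD5/CD6 experiment. The 20 h libraries lay below all others, and the 0 h and 4 h libraries overlapped. Its log2 change was -0.10 ± 0.15 (SE, edgeR's quasi-likelihood test, adjusted p = 0.75) at 4 h and -1.13 ± 0.15 (adjusted p = 1.37e-09) at 20 h, and -1.11 ± 0.15 (adjusted p = 6.92e-13) at 20 h in the LAT experiment. Cd3g went from 820.6, 826.9, and 928.2 CPM at 0 h to 759.4, 525.1, and 721.7 CPM at 4 h and 290.4, 307.2, and 376 CPM at 20 h. Its libraries of different times did not overlap, yet the 4 h change of -0.36 ± 0.17 missed the threshold (adjusted p = 0.121), while in the LAT experiment the 4 h change of -0.54 ± 0.15 passed it (adjusted p = 0.00108). In the latter the 0 h WT library 2 stood apart (1341 CPM, against 895.9 and 873.9 CPM), and without that library (-0.31, adjusted p = 0.0815) or all libraries numbered 2 (-0.33, adjusted p = 0.0995) the change did not pass.

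By 20 h Cd3g had fallen by 1.40 ± 0.18 (adjusted p = 1.23e-10) on the log2 scale in the CD5/CD6 experiment and by 1.51 ± 0.15 (adjusted p = 9.3e-23) in the LAT experiment. Cd3d was the most uneven chain gene, at 967, 803.7, and 1155 CPM at 0 h, 710.3, 558.1, and 829 CPM at 4 h, and 419, 512.6, and 676.8 CPM at 20 h. Its 0 h and 4 h libraries overlapped, as did those of 4 h and 20 h, and the 20 h changes from 0 h were -0.86 ± 0.21 (adjusted p = 0.000316) and, in the LAT experiment, -1.12 ± 0.15 (adjusted p = 2.51e-13). Same-numbered libraries deviated together between 0 h and 4 h in WT cells from the CD5/CD6 experiment, and with the replicate number as a block the 4 h changes of Cd3d (-0.48, adjusted p = 0.00212) and Cd3g (-0.38, adjusted p = 0.0146) passed the threshold, which made 4 lower in place of 2.

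Cd247 codes for the zeta chain, which carries most of the signaling motifs of the receptor, and it had already fallen at 4 h. It was at 647, 583.6, and 727.5 CPM at 0 h, 245.5, 293.3, and 372.3 CPM at 4 h, and 243.3, 222.6, and 282.4 CPM at 20 h in WT cells from the CD5/CD6 experiment. All stimulated libraries lay below all unstimulated libraries, and the 4 h and 20 h libraries overlapped. The log2 changes were -1.10 ± 0.17 (adjusted p = 5.04e-08) at 4 h and -1.39 ± 0.17 (adjusted p = 3.8e-11) at 20 h. In WT cells from the LAT experiment it went from 776.4, 923.4, and 768.6 CPM at 0 h to 388.9, 389.1, and 678 CPM at 4 h and 190, 182, and 162.6 CPM at 20 h. The 4 h WT library 3 of that experiment lay nearer to the unstimulated libraries than the other two. Here the changes were -0.76 ± 0.15 (adjusted p = 1.49e-06) at 4 h and -2.21 ± 0.15 (adjusted p = 9.01e-46) at 20 h, a 4.62-fold lower level. Within a library and per kilobase, Cd247 stood at 1.02 ± 0.0308 (SD, n = 3) times the level of Cd3e at 0 h, 0.515 ± 0.118 times at 4 h, and 0.855 ± 0.0818 times at 20 h in the CD5/CD6 experiment. In the LAT experiment this ratio was 1.25 ± 0.116, 0.715 ± 0.249, and 0.583 ± 0.0130.

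Cd4, the coreceptor that binds MHC class II and brings LCK to the receptor, was also lower at 4 h and remained so at 20 h. It was at 1236, 1105, and 1306 CPM at 0 h, 707.7, 637.2, and 585.6 CPM at 4 h, and 798.6, 685, and 567 CPM at 20 h. No stimulated library reached an unstimulated library, and the 4 h and 20 h libraries overlapped. The log2 changes from 0 h were -0.92 ± 0.17 (adjusted p = 4.94e-06) and -0.83 ± 0.17 (adjusted p = 2.27e-05) in the CD5/CD6 experiment, and the change was -0.97 ± 0.15 (adjusted p = 3.78e-10) in the LAT experiment at 4 h, where the 20 h level was 2.01-fold lower than at 0 h (adjusted p = 5.82e-11). Between 4 h and 20 h Cd4 differed by 0.09 (95% interval -0.25 to 0.42) and -0.04 (-0.32 to 0.25).

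The SRC family kinase genes Lck and Fyn took different courses. Lck was at 1148, 1247, and 1351 CPM at 0 h and 1516, 1331, and 1554 CPM at 4 h, with overlapping libraries and a log2 change of 0.23 ± 0.14 (adjusted p = 0.275) that was -0.01 with library totals. By 20 h it was at 824.8, 821.4, and 912.4 CPM, below all earlier libraries (-0.55 ± 0.15, adjusted p = 0.00113, and -0.78 ± 0.15, adjusted p = 4.78e-07 in the LAT experiment). Fyn rose from 450.5, 421.2, and 413.3 CPM at 0 h to 1152, 1046, and 1056 CPM at 4 h, and its 20 h libraries (339.1, 343.6, and 297.8 CPM) lay below the unstimulated libraries. The rise was 2.53-fold (log2 1.34 ± 0.15, adjusted p = 2.24e-12), and 2.45-fold in the LAT experiment (1.29 ± 0.15, adjusted p = 7.38e-17). The 20 h change of Fyn was -0.39 ± 0.15 (adjusted p = 0.0252), which did not pass without the libraries numbered 1 (-0.38, adjusted p = 0.171), and it was -0.33 ± 0.15 (adjusted p = 0.0675) in the LAT experiment. Within a library and per kilobase, Lck stood at 4.36 ± 0.540 (SD, n = 3) times the level of Fyn at 0 h, 2.02 ± 0.155 times at 4 h, and 3.92 ± 0.562 times at 20 h, and in the LAT experiment at 4.99 ± 0.547, 2.23 ± 0.0755, and 3.68 ± 0.472 times.

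Zap70, the kinase that binds phosphorylated chain tails, was the member that was still higher at 20 h. It was at 240.4, 242.6, and 301.7 CPM at 0 h, 1055, 934, and 913.1 CPM at 4 h, and 481.4, 504.5, and 498.9 CPM at 20 h, so that no libraries of different times overlapped. The level was 3.70-fold higher at 4 h (log2 1.89 ± 0.15, adjusted p = 6.19e-19) and 1.89-fold higher at 20 h (0.92 ± 0.14, adjusted p = 6.48e-08) than at 0 h. In the LAT experiment it was 3.22-fold higher at 4 h (1.69 ± 0.15, adjusted p = 1.48e-27) and 1.52-fold higher at 20 h (0.60 ± 0.15, adjusted p = 0.000189). Relative to Lck, whose product activates ZAP-70, Zap70 per kilobase stood at 0.205 ± 0.0141 (SD, n = 3) before stimulation, 0.648 ± 0.0627 after 4 h, and 0.569 ± 0.0331 after 20 h.

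**Figure D2:**
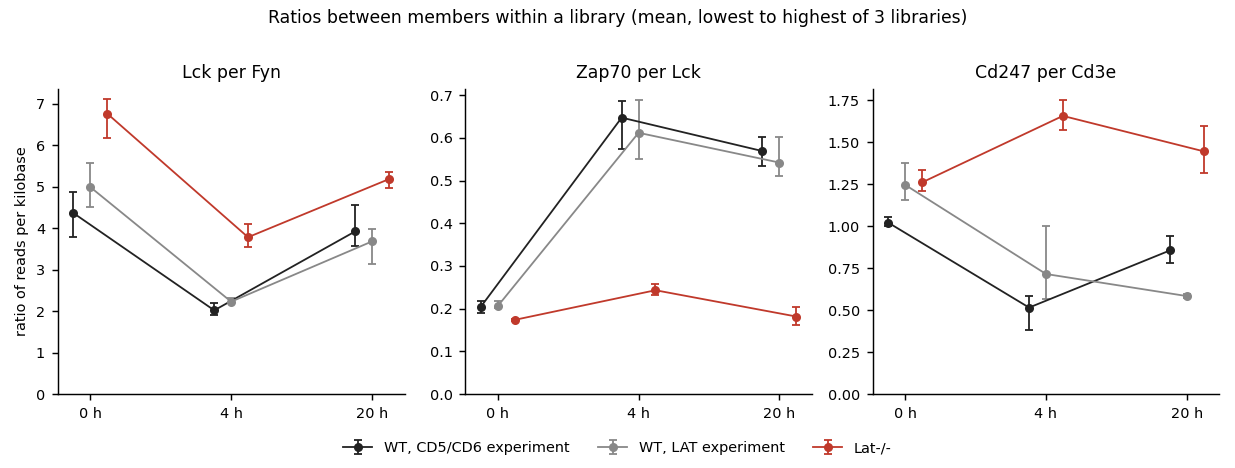
Ratios of levels per kilobase between members within a library at 0, 4, and 20 h (Lck per Fyn, Zap70 per Lck, Cd247 per Cd3e), with points at the mean and bars from the lowest to the highest of 3 libraries, for WT cells of both experiments and Lat-/- cells. Lck per Fyn is lowest at 4 h in both WT groups and in Lat-/- cells, where its means are 6.76, 3.78, and 5.18 at the 3 times. Zap70 per Lck is 0.510 or higher at 4 h and 20 h in both WT groups, whereas in Lat-/- cells it stays between 0.162 and 0.257.

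The phosphatase genes rose at 4 h and were below their unstimulated level at 20 h. Ptprc, whose product CD45 is found on nucleated blood cells, was at 2442, 2637, and 2157 CPM at 0 h, 6152, 5990, and 4955 CPM at 4 h, and 1659, 1645, and 1241 CPM at 20 h. The libraries of different times did not overlap, and the log2 changes were 1.24 ± 0.17 (adjusted p = 1.86e-09) at 4 h and -0.67 ± 0.16 (adjusted p = 0.000458) at 20 h. In the LAT experiment they were 1.11 ± 0.14 (adjusted p = 3.02e-13) and -0.55 ± 0.14 (adjusted p = 0.000572). The 20 h libraries there overlapped those of 0 h, where WT library 2 was at 1539 CPM against 2441 and 2298 CPM, and without the libraries numbered 1 the change did not pass (-0.44, adjusted p = 0.0797). Ptpn22 rose from 167.1, 171.6, and 160.1 CPM at 0 h to 1016, 1003, and 924.8 CPM at 4 h and was at 76.6, 95.8, and 85.1 CPM at 20 h, again with no overlap between times. This was a 5.90-fold rise (log2 2.56 ± 0.15, adjusted p = 4.02e-25) followed by an 11.4-fold fall from 4 h to 20 h (-3.52 ± 0.16, adjusted p = 6.19e-32), which ended below the unstimulated level (-0.95 ± 0.14, adjusted p = 3.26e-08). In the LAT experiment the rise was 5.66-fold (2.50 ± 0.16, adjusted p = 4.79e-56) and the fall 10.7-fold (-3.41 ± 0.16, adjusted p = 5.97e-96). CPM are shares of a library, so a lower level of a gene need not mean less of its RNA per cell. As these are bulk samples, fewer cells of a type, less RNA of the gene per cell, and more RNA of other genes cannot be told apart.

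In cells without CD5, CD6, or both, receptors that bind partners on other cells and tune T cell activation, no member passed the test against WT cells at any of the 3 times. The share of all genes that passed at 0, 4, and 20 h was 0.0619%, 0.0867%, and 0.0217% in Cd5-/- cells, 0%, 0.0031%, and 0.0186% in Cd6-/- cells, and 0.0279%, 0.0434%, and 0.0465% in Cd5-/-Cd6-/- cells. At 0 h the Cd5-/- and Cd6-/- groups each hold a library that went against its label, and in Cd6-/- cells even Cd6 itself did not pass, so these 0 h results say little. Among the values of 10 members in 3 genotypes at 3 times, 4 had an unadjusted p under 0.05, all higher than in WT cells. These were Cd247 at 4 h and 20 h and Ptpn22 at 20 h in Cd6-/- cells, and Ptpn22 at 20 h in Cd5-/-Cd6-/- cells. With this many values some fall under 0.05 without any difference, and the share of all genes that did so was not taken. DESeq2 called 0 members. Cd247 in Cd6-/- cells was at 341, 450.5, and 474.9 CPM at 4 h, next to 245.5, 293.3, and 372.3 CPM in WT cells, with a log2 difference of 0.48 ± 0.16 (95% interval 0.15 to 0.80, adjusted p = 1). The groups overlapped, but same-numbered libraries deviated together, and Cd247 was higher in Cd6-/- cells in each of the 3 pairs. With the replicate number as a block the difference was 0.48 (adjusted p = 0.0932), and without the libraries numbered 3 the difference passed (0.55, adjusted p = 0.00581). Ptpn22 in Cd6-/- cells at 20 h was at 99.9, 120.1, and 106.8 CPM, next to 76.6, 95.8, and 85.1 CPM in WT cells, a difference of 0.34 ± 0.14 (95% interval 0.06 to 0.63, adjusted p = 1) between groups that did not overlap. Over all these comparisons the 95% intervals of the 10 members reached from -0.68 to 0.80.

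The response to stimulation was also taken within each of these genotypes. In Cd5-/- cells 6 members passed the test at 4 h and 10 at 20 h, against 28.4% and 38.1% of all genes. In Cd6-/- cells 8 passed at 4 h, which included Cd3d (-0.86) and Cd3g (-0.80), and 10 at 20 h, against 27.2% and 36.8%. In Cd5-/-Cd6-/- cells 6 and 10 passed, against 26.4% and 38.3%. With the replicate number as a block, Cd3d (-0.36, adjusted p = 0.0306) and Cd3g (-0.39, adjusted p = 0.0114) also passed at 4 h in the latter. Zap70 was higher at 20 h in all 3 genotypes (log2 1.00, 0.68, and 0.85) and the other 9 members were lower, while Ptpn22 rose at 4 h (log2 2.59, 2.48, and 2.41). The 20 h call of Fyn was lost without the libraries numbered 1 in Cd5-/- cells (-0.47, adjusted p = 0.0658) and without those numbered 1 (-0.45, adjusted p = 0.0905) or 2 (-0.48, adjusted p = 0.0514) in Cd6-/- cells. The difference between the response of a knockout and that of WT cells passed the test for 0 members, against 0.0031% of genes at 4 h and 0.0031% at 20 h in Cd5-/- cells, 0% and 0.0031% in Cd6-/- cells, and 0% at both times in Cd5-/-Cd6-/- cells. The intervals of these differences reached from -0.96 to 0.88, and all 3 genotypes were compared with the same WT libraries.

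**Figure D3:**
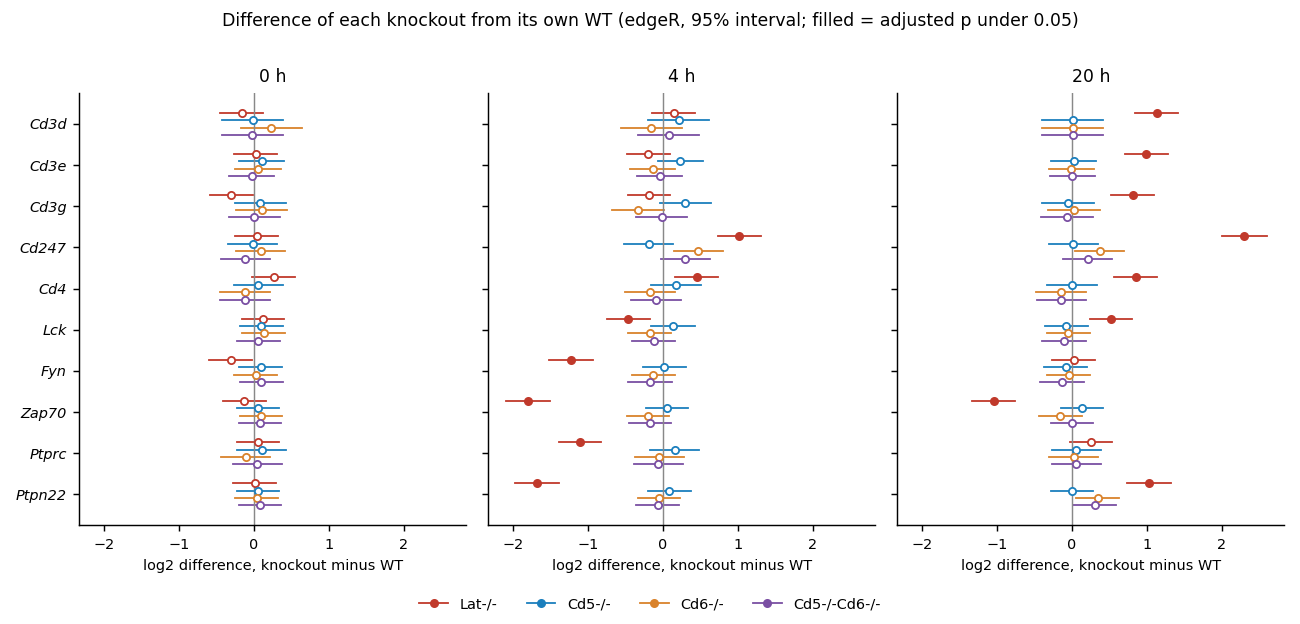
Log2 difference of each knockout from WT cells of its own experiment (edgeR) for the 10 genes at 0, 4, and 20 h, with 95% intervals as lines and filled points where adjusted p was under 0.05. Points of Cd5-/-, Cd6-/-, and Cd5-/-Cd6-/- cells are all open and lie between -0.33 and 0.48, whereas Lat-/- cells have 7 filled points at 4 h, 8 at 20 h, and 0 in unstimulated cells.

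In cells without LAT, the adaptor that ZAP-70 phosphorylates, the members differed from WT cells after stimulation. At 0 h 0 members passed the test between Lat-/- and WT cells from the LAT experiment, against 0.41% of genes higher and 1.18% lower. Of the 10 members 2 had an unadjusted p under 0.05, Cd3g (-0.31, 95% interval -0.59 to -0.02) and Fyn (-0.31, -0.60 to -0.03). The share of all genes that did so was not taken. DESeq2 called Fyn (-0.33, adjusted p = 0.0319), whose Lat-/- libraries lay below all WT libraries. At 4 h Cd247 and Cd4 were higher in Lat-/- cells and Lck, Fyn, Zap70, Ptprc, and Ptpn22 were lower, against 11.9% of genes higher and 12% lower. At 20 h 7 members were higher (Cd3d, Cd3e, Cd3g, Cd247, Cd4, Lck, Ptpn22) and Zap70 was lower, against 17.6% of genes in each direction. The median log2 difference of the 10 members was 0.02, -0.33, and 0.83 at the 3 times, next to 0 over all genes tested. Over genes with a mean count of at least 10 it was 0.008, 0.032, and 0.035. The 4 h call of Cd4 (0.45 ± 0.15, adjusted p = 0.00975) did not hold without the libraries numbered 1 (0.45, adjusted p = 0.113).

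Within Lat-/- cells, Ptpn22 was higher at 4 h than at 0 h and Cd3g, Cd4, and Lck were lower, against 7.38% of genes higher and 8.05% lower. At 20 h Cd4 was lower than at 0 h (-0.41 ± 0.15, adjusted p = 0.0432) and no other member passed, against 5.34% of genes lower and 5.35% higher. From 4 h to 20 h Ptpn22 fell (-0.70 ± 0.15, adjusted p = 6.57e-05) and no other member passed, against 4.74% lower and 5.39% higher. The 20 h call of Cd4 did not hold without the libraries numbered 1 (-0.37, adjusted p = 0.466) or 2 (-0.41, adjusted p = 0.0562). Without those numbered 1, the 4 h changes of Cd3g (-0.39, adjusted p = 0.332) and Lck (-0.44, adjusted p = 0.201) and the later fall of Ptpn22 (-0.59, adjusted p = 0.0759) missed the threshold too. Without the libraries numbered 3, 4 members (Cd3g, Cd4, Lck, and Zap70) were lower at 20 h than at 0 h.

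**Figure D4:**
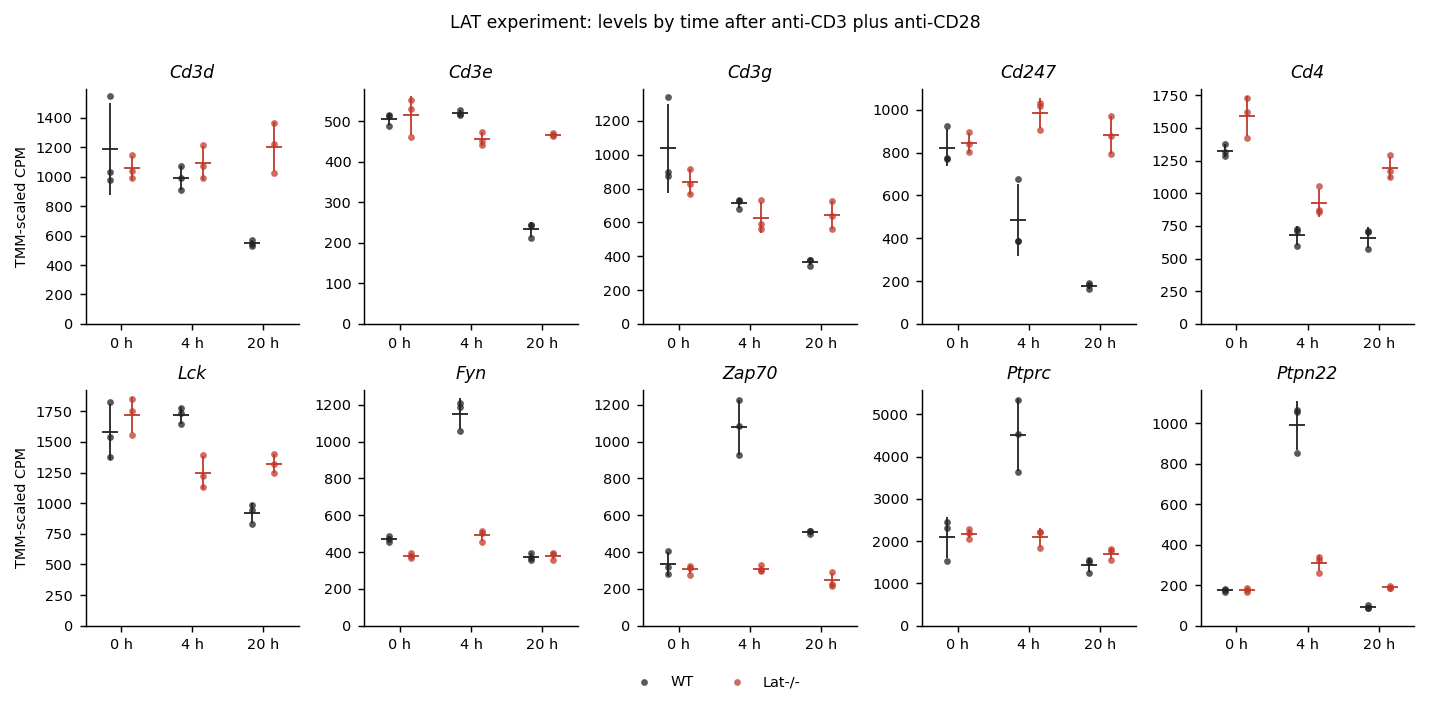
Level of each gene (TMM-scaled CPM, linear axis from 0) in every library of the LAT experiment at 0, 4, and 20 h for WT and Lat-/- cells, with the mean (bar) and SD (line) of 3 libraries. Zap70 in Lat-/- cells stays between 217.6 and 328.6 CPM while WT cells reach 924.2 to 1225 CPM at 4 h, and Cd247 in Lat-/- cells stays at 794.5 CPM or above while WT cells are at 162.6 to 190 CPM at 20 h.

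Zap70 kept close to its unstimulated level without LAT. In Lat-/- cells it was at 314.8, 324.4, and 277.1 CPM at 0 h, 301.8, 328.6, and 296.7 CPM at 4 h, and 228.8, 217.6, and 292.3 CPM at 20 h, and in WT cells at 316.5, 405.1, and 282.1 CPM, then 1225, 1082, and 924.2 CPM, then 497.8, 513.6, and 512.4 CPM. The genotypes overlapped at 0 h and were apart at 4 h and 20 h, by -1.80 ± 0.15 (adjusted p = 9.17e-31) and -1.04 ± 0.15 (adjusted p = 1.49e-11) on the log2 scale. The Lat-/- response minus the WT response was -1.67 ± 0.21 (adjusted p = 1.35e-13) at 4 h and -0.91 ± 0.21 (adjusted p = 7.92e-05) at 20 h. Zap70 per Lck, per kilobase, was 0.174 ± 0.00225 (SD, n = 3), 0.243 ± 0.0132, and 0.182 ± 0.0212 in Lat-/- cells and 0.206 ± 0.00947, 0.612 ± 0.0708, and 0.542 ± 0.0522 in WT cells of that experiment.

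Fyn was at 367.6, 394.9, and 376.4 CPM at 0 h and 513.1, 505.8, and 457.3 CPM at 4 h in Lat-/- cells, a change of 0.37 ± 0.15 (adjusted p = 0.0651, and 0.000244 with DESeq2) between libraries that did not overlap. At 4 h it differed from WT cells (1187, 1213, and 1059 CPM) by -1.23 ± 0.15 (adjusted p = 3.51e-15). At 20 h Fyn was at 356.8, 395.6, and 390.5 CPM against 359.2, 370.1, and 395.9 CPM in WT cells, a difference of 0.02 (95% interval -0.26 to 0.31). Lck was at 1223, 1393, and 1130 CPM at 4 h, below the WT libraries at 1739, 1776, and 1644 CPM (-0.46 ± 0.14, adjusted p = 0.00754), but this missed the threshold with library totals (-0.34, adjusted p = 0.0564) and without the libraries numbered 1 (-0.41, adjusted p = 0.172). At 20 h Lck was higher without LAT (0.52 ± 0.14, adjusted p = 0.00119).

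Of the phosphatase genes, Ptprc was at 2189, 2288, and 2061 CPM at 0 h and 2220, 1832, and 2209 CPM at 4 h in Lat-/- cells, a change of -0.06 (95% interval -0.34 to 0.22), where WT cells went to 4539, 5345, and 3641 CPM at 4 h. The Lat-/- response minus the WT response was -1.17 ± 0.20 (adjusted p = 2.63e-07). Ptpn22 did rise without LAT, from 175.6, 186.8, and 166.7 CPM to 337.4, 325.8, and 262.5 CPM at 4 h, or 1.75-fold (0.81 ± 0.15, adjusted p = 1.32e-06), and the response difference from WT cells was -1.69 ± 0.21 (adjusted p = 7.71e-14). At 20 h it was at 184.1, 197.9, and 187.5 CPM, above the 88.2, 89.6, and 101.1 CPM of WT cells (1.03 ± 0.15, adjusted p = 4.39e-11).

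The chain genes were higher without LAT at 20 h. Cd247 was at 838, 895.6, and 802 CPM at 0 h, 905.6, 1019, and 1031 CPM at 4 h, and 794.5, 876.3, and 971.3 CPM at 20 h in Lat-/- cells. All its Lat-/- libraries of 4 h and 20 h lay above the WT libraries of the same time, with differences of 1.02 ± 0.15 (adjusted p = 7.37e-11) and 2.31 ± 0.15 (adjusted p = 1.33e-49), and the latter, at 4.94-fold, was the largest difference of a member between genotypes at 1 time in either experiment. At 20 h Cd3d was at 1028, 1219, and 1361 CPM, Cd3e at 463.2, 471.1, and 465.3 CPM, and Cd3g at 561.9, 638, and 727.7 CPM, all above the WT libraries of that time. They differed from WT cells by 1.14 ± 0.15 (adjusted p = 8.79e-14), 1.00 ± 0.15 (adjusted p = 1.41e-10), and 0.82 ± 0.15 (adjusted p = 1.64e-07). Cd4 fell at 4 h in Lat-/- cells too, to 856, 872.5, and 1053 CPM (-0.78 ± 0.15, adjusted p = 2.11e-06), and the 4 h response difference was 0.19 (95% interval -0.21 to 0.59). At 20 h Cd4 was at 1167, 1291, and 1126 CPM without LAT against 700.3, 713.9, and 569.8 CPM in WT cells (0.85 ± 0.15, adjusted p = 3.05e-08).

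The difference between the Lat-/- and the WT response passed the test for 6 members at 4 h, with Cd247 higher and 5 lower (Lck, Fyn, Zap70, Ptprc, Ptpn22), against 7.42% of genes higher and 7.58% lower. At 20 h it did so for 7, with 6 higher (Cd3d, Cd3e, Cd3g, Cd247, Cd4, Ptpn22) and Zap70 lower, against 13.5% higher and 12.8% lower. Ptpn22 was thus lower at 4 h and higher at 20 h, while Cd247 was higher and Zap70 lower at both times. The call of Lck at 4 h did not hold without the libraries numbered 1 (-0.49, adjusted p = 0.41) or 3 (-0.51, adjusted p = 0.0639), nor did that of Cd4 at 20 h (0.63, adjusted p = 0.11 and 0.49, adjusted p = 0.0634). That of Lck was also lost with library totals (-0.43, edgeR adjusted p = 0.136) and with the compared groups alone (-0.56, edgeR adjusted p = 0.0946). The naive T cell markers Lef1, Tcf7, Ccr7, and Il7r moved with these differences, with a summed level at 20 h of 2126 to 2284 CPM in WT cells and 6756 to 8067 CPM in Lat-/- cells, and their part was not tested.

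The other genes of the receptor and of kinase control were set beside the 10 members in 4 lists, of which 31 of 32 genes could be tested. In WT cells from the CD5/CD6 experiment 8 were higher and 14 lower at 4 h and 7 higher and 19 lower at 20 h, against 13.3% of all genes higher and 15.2% lower at 4 h and 16.9% and 21.1% at 20 h. The LAT experiment had, in WT cells, 9 higher and 12 lower, then 6 higher and 14 lower, against 14.2% and 14.8%, then 16.5% and 18.2%. The constant genes Trac, Trbc1, and Trbc2 and Trat1, an adaptor gene of the receptor, were all lower at 20 h in both experiments, with Trac at -1.03 ± 0.14 in the CD5/CD6 experiment after a rise of 0.84 ± 0.14 at 4 h (log2 ± SE). Trbc1 and Trbc2 are near-identical copies, so their separate values are uncertain. Among other kinases, Txk (-3.06 ± 0.19) and Tec (-3.25 ± 0.25), both of the TEC family, fell by 20 h. Csk, which places the inhibitory phosphate on LCK, was at -0.12 ± 0.14 at 20 h and did not pass. Over all genotypes of the CD5/CD6 experiment Csk was at 543.2 to 685.5 CPM at 0 h and lower, at 403.1 to 524.2 CPM, at 4 h. In the LAT experiment it was at 583.6 to 771.8 CPM and 377.5 to 478.2 CPM. These ranges pool the genotypes, and the test of the 4 h change of Csk in WT cells is not given here. Syk, Lyn, and Fgr, kinases of B cells and myeloid cells, were also lower at 4 h and 20 h in WT cells from the CD5/CD6 experiment. They were at 61.9 CPM or below in that experiment and at 2.84 CPM or below in the sorted cells, where none of their WT responses passed (edgeR), and the B cell, myeloid, and erythroid markers given above moved with them. Their part in this was not tested.

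Among the phosphatases that act near the receptor, Ubash3b rose most at 4 h (3.93 ± 0.20 and, in the LAT experiment, 3.96 ± 0.17), while Ptpre fell by 20 h (-3.39 ± 0.22 and -3.17 ± 0.20). Adaptors and ubiquitin ligases went both ways at 4 h, with Sla (2.11 ± 0.15), Sh2d2a (1.83 ± 0.15), and Cblb (2.06 ± 0.16) higher and Sit1 (-3.71 ± 0.19), Themis (-2.89 ± 0.19), Sla2 (-2.23 ± 0.18), and Unc119 (-2.04 ± 0.22) lower in the CD5/CD6 experiment. Between Lat-/- and WT cells 3 genes of the lists were higher and 2 lower at 0 h, 10 higher and 8 lower at 4 h, and 15 higher and 11 lower at 20 h, against 0.41% and 1.18%, 11.9% and 12%, and 17.6% and 17.6% of all genes. At 0 h, when no member passed, Ptpn6 (SHP-1, a phosphatase that restrains receptor signaling) was at 165.8, 184.9, and 137 CPM in Lat-/- cells against 295.2, 334, and 216 CPM in WT cells, a log2 difference of -0.79 ± 0.15 that passed. At 20 h Tec (4.69 ± 0.19), Ptpre (3.45 ± 0.20), and Txk (2.74 ± 0.16) were among the genes higher without LAT. Against WT cells, Syk was lower in Cd5-/- cells at 0 h (-1.40 ± 0.30) and 4 h (-1.42 ± 0.31), and no other gene of the lists passed in Cd5-/-, Cd6-/-, or Cd5-/-Cd6-/- cells. The B cell markers of the same libraries summed to 759.7 to 896.6 CPM in Cd5-/- and 822.3 to 2108 CPM in WT cells at 0 h and to 138.7 to 173.7 and 217.4 to 523 CPM at 4 h, and the 0 h Cd5-/- group holds the library that went against its label. These sums are mostly Ighm and so measure B cells poorly. Ighm was at 712.9 to 1146 CPM at 0 h in the sorted cells, where Pax5 was at most 0.122 CPM. The part of B cells in the values of Syk was not tested.

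Over the 18 condition means of both experiments, each centered within its experiment, Fyn and Ptprc had the most alike patterns among the 10 genes, with a root mean square difference of 0.139 (log2), and Cd4 and Ptpn22 the least alike, at 1.51. Of 9558 other genes, those most like a member were BC024978 for Ptprc (0.092), Sdad1 for Zap70 (0.096), Map2k7 for Lck (0.087), Lemd2 for Cd3e (0.098), Atp6ap1 for Cd3d (0.099), Elac1 for Cd4 (0.104), Fkbp15 for Cd3g (0.127), and Map3k11 for Fyn (0.127). The nearest genes to Cd247 (H2-M3, 0.217) and Ptpn22 (Atp9a, 0.209) lay farther away, though the pattern of Ptpn22 was itself larger (root mean square 1.314, against 0.346 for Lck). These are descriptions over conditions that share libraries and time points, with no test.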

How the data were processed

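RNA of naive CD4+ T cells was sequenced from stranded mRNA libraries (single 50-base reads). The authors trimmed reads with DimerRemover, aligned them to GRCm38 with STAR, and deposited raw read counts per gene from featureCounts v1.6.0. The annotation release, the strand setting, and the treatment of reads with several alignments are not given in the sources used here. From the deposited counts, genes with at least 1 read were tested in R 4.3.3 with edgeR 4.0.16 (quasi-likelihood test, TMM factors), with all libraries of an experiment in 1 fit (32290 genes in the CD5/CD6 and 27780 in the LAT experiment), Benjamini-Hochberg adjustment over all genes, and a threshold of 0.05. The fit was run on counts simulated with the same spread for every gene, which checks the code and not the p-values given here. The members and gene lists were chosen with earlier results of these data known. Some genes of the marker and pathway lists are not reported here and were left out of the sums and counts. The rule for naming genes took all 10 members, genes of 4 fixed lists as examples, and the nearest patterns among protein-coding genes with a mean count of at least 50 in each experiment. Levels per kilobase use the counted length of each gene.

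No per-sample column was left unused. In 54 replicate pairs the counts differed by more than sampling noise (lowest chi-square per degree of freedom 3.45). Pairing was checked by correlating the deviations of same-numbered libraries from their group means. Every pair was over 0.1 in 14 of 30 comparisons. Alternatives were DESeq2 1.42.0, RLE factors, library totals, filterByExpr, the replicate number as a block, the compared groups alone, a fold above 2, each replicate number left out, both doubted 0 h libraries left out, and, added after seeing the data, each of 2 libraries that stood apart left out.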

Additional observations from a re-analysis of the deposited data

Results flagged for a closer look

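The response of Lat-/- cells to stimulation differed from that of WT cells by a test of the difference itself (the interaction of genotype and time, edgeR, 3 libraries a group, adjusted over all genes). At 4 h the Lat-/- response minus the WT response, on the log2 scale, was 0.98 for Cd247, -0.58 for Lck, -0.92 for Fyn, -1.67 for Zap70, -1.17 for Ptprc, and -1.69 for Ptpn22. At 20 h it was 1.3 for Cd3d, 0.97 for Cd3e, 1.12 for Cd3g, 2.27 for Cd247, 0.59 for Cd4, -0.91 for Zap70, and 1.02 for Ptpn22. The calls of Lck at 4 h and of Cd4 at 20 h did not hold under some of the alternatives, as given above. No test for single outlying libraries was run on the members, since each group held 3.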

How the results depend on the processing

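No fold change of a member that had passed the test changed sign under any alternative run, over 49 counts of members called and 380 member fold changes. The shares of all genes under the alternatives were not taken. Requiring a fold above 2 lowered the counts most. In WT cells from the CD5/CD6 experiment 1 member was then lower at 4 h, and 0 were higher and 3 lower at 20 h. In Cd5-/-, Cd6-/-, and Cd5-/-Cd6-/- cells 4, 4, and 3 passed at 20 h, and 4 in Cd6-/- cells at 4 h. In WT cells from the LAT experiment 0 were lower at 4 h, and 0 higher and 5 lower at 20 h. In Lat-/- cells 0 passed in either direction at 4 h, at 20 h, or between 4 h and 20 h, against WT cells 1 was higher at 4 h and 3 at 20 h, and in the response differences 0 were higher and 3 lower at 4 h and 0 lower at 20 h. Library totals made 5 lower in WT cells from the CD5/CD6 experiment at 4 h and 4 lower in Lat-/- cells at 20 h. In Lat-/- cells 2 were higher at 4 h in place of 1 with DESeq2, RLE factors, filterByExpr, the block, or the compared groups alone. At 20 h against 0 h, 2 were lower in place of 1 with DESeq2 or filterByExpr, 0 with RLE factors, and 3 with the compared groups alone. Between 4 h and 20 h DESeq2 gave 1 higher and 2 lower and filterByExpr 2 lower, and DESeq2 gave 1 lower in Lat-/- than in WT cells at 0 h. The cause of these differences was not tested.

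Leaving out each replicate number in turn gave 2 to 4 members lower in WT cells from the CD5/CD6 experiment at 4 h and 0 to 1 between Cd6-/- and WT cells at 4 h. In Lat-/- cells it gave 1 to 2 higher and 1 to 3 lower at 4 h, 0 to 4 lower at 20 h, and 0 to 1 higher and 0 to 2 lower between 4 h and 20 h, and 1 to 2 higher than in WT cells at 4 h. With the replicate number as a block, 0 calls were lost and 13 gained. Members lower at 4 h in WT cells from the CD5/CD6 experiment went from 2 to 4, those higher in Lat-/- cells at 4 h from 1 to 2, and those lower there at 20 h from 1 to 4. In Cd5-/-Cd6-/- cells, 9 in place of 7 passed between 4 h and 20 h under the block. In the main fit 4317 of 32290 genes were higher and 5746 lower in that comparison. Without both doubted 0 h libraries 0 calls were lost and 4 gained. Leaving out single libraries that stood apart was chosen after seeing the data. Without the 0 h WT library 2 of the LAT experiment, 2 members were higher in Lat-/- cells at 4 h, 4 lower at 20 h, and 1 higher and 2 lower between 4 h and 20 h. Without the 0 h Cd6-/- library 3, 0 counts moved by over 1.5 times.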
